A study of Rattus norvegicus with 36 samples.

Results

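The comparison sets the livers of 6 male rats given decabromodiphenylethane (DBDPE), a brominated flame retardant, at 9.71 mg/kg per day against those of 6 male rats given its corn oil vehicle. These 12 arrays, of 36 in the series, were taken by the dose in the labels. All animals were Harlan Sprague Dawley rats with no allele named in the labels, aged 7 weeks at the start. Vehicle animals received corn oil alone and treated animals DBDPE in it, by oral gavage of 5 ml/kg on 5 consecutive days. Besides 9.71 mg/kg, 2 groups had lower doses (0.97 and 0.1 mg/kg) and 2 had higher ones (970 and 97.1 mg/kg). The left lobe of the liver was taken 1 day after the last dose. The labels number the samples within each group of 6 but name no animal, litter or cage. Each sample was counted as 1 rat, and p-values measure only the spread between these samples. The question was whether 9.71 mg/kg, the middle dose, already moves liver transcripts or lies at or below the dose at which a response begins. For that, the dose was also set against its neighbours, 0.97 and 97.1 mg/kg.

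The aryl hydrocarbon receptor (AhR) is a transcription factor that waits in the cytoplasm with the chaperone Hsp90 and its partner p23, the product of Ptges3. A planar ligand sends it to the nucleus, where it pairs with Arnt and binds DNA sites around the core GCGTG. In liver its best known targets are Cyp1a1, a cytochrome P450 gene that is nearly silent in untreated animals, and Cyp1a2, a P450 gene that hepatocytes already express strongly. Other targets are Cyp1b1, the quinone reductase gene Nqo1, the aldehyde dehydrogenase gene Aldh3a1, the ADP-ribosylating enzyme gene Tiparp and Ahrr, whose product represses the receptor.

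The 250 bases before the start of Cyp1a2 and of Ahrr are printed because they show how a strong target can lack the core near its start and another can hold it. Both come from RefSeq (GRCr8), and capitals mark GCGTG on either strand. Cyp1a2 lies on the minus strand at chr8:66978150-66978399, with 0 matches, and Ahrr on the plus strand at chr1:30821969-30822218, with 3.
Cyp1a2: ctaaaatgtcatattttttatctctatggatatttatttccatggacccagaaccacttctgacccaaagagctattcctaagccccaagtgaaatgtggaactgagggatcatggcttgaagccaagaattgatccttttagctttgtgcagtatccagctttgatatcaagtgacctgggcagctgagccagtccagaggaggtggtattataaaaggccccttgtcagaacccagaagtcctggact
Ahrr: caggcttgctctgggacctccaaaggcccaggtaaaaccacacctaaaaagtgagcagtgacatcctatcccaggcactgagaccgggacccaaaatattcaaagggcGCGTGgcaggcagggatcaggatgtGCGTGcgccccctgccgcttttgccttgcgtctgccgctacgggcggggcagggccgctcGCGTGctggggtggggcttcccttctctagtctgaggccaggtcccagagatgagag
Of the 8 AhR target genes listed, 6 have a promoter in that table, and 5 of those 6 hold the core, against 25.9% of all 33469 promoters of the same length. A match is only a description of the letters. Cyp1a1 has no entry.

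The 12 arrays were alike. Over all probe sets, pairs of them correlated at r = 0.993 to 0.996, a figure across features and not across replicates. Their medians spanned log2 signals of 5.07 to 5.12. The mean distance between arrays was 42.7 within a group and 43.2 between the groups. As a sign of RNA quality, the 3′ signal of beta-actin exceeded its 5′ signal by a log2 difference of 1.12 ± 0.07 in vehicle arrays and 1.14 ± 0.08 in treated ones (SD, n = 6 each). Hepatocyte markers were high, as the tissue label says: their mean log2 level over 9 genes lay between 13.29 and 13.37 in vehicle animals and between 13.29 and 13.34 in treated ones. Of the markers of pancreatic acinar cells, a neighbouring tissue, Cpa1 and Prss1 had vehicle means of 4.11 and 3.31, below every array median, whereas Cela1 lay at 10.29 ± 0.21 in vehicle and 10.10 ± 0.16 at 9.71 mg/kg (SD, n = 6 each).

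No transcript passed the test across the array at 9.71 mg/kg. Cyp1a1 was nevertheless slightly higher than in vehicle by a test of that gene alone, at 1.22-fold, and Cyp1a2 at 1.10-fold. In limma, adjusted over the 31042 probe sets, 0 passed (0%), and the smallest adjusted p was 0.116. That probe set names no gene and had a log2 difference of -0.57. An unadjusted p under 0.05 was reached by 1532 probe sets, of which 769 were higher (2.48%) and 763 lower (2.46%). The groups did not overlap for 22 probe sets that were higher (0.0709%) and 34 that were lower (0.110%). The 95% interval of the log2 difference reached a median of 0.16 on either side, and it lay within 1.5-fold in either direction for 97.8% of probe sets and within 2-fold for 99.5%. The number of arrays limits this precision. Where a signal is close to background, such an interval says little about the transcript.

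**Figure D1:**
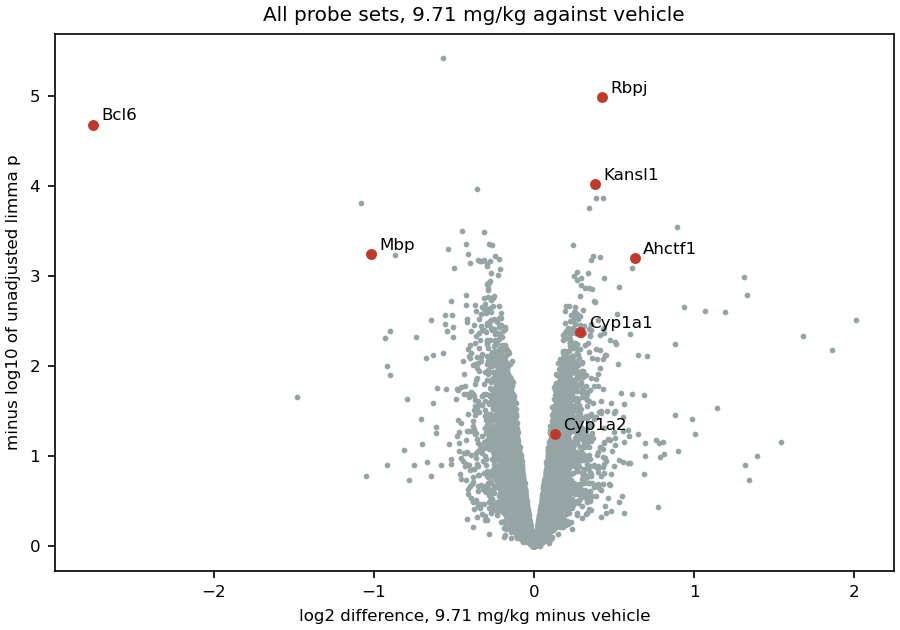
Each point is 1 of 31042 probe sets, with the log2 difference between 9.71 mg/kg and vehicle on the x axis and minus log10 of the unadjusted limma p on the y axis. Most points lie close to 0, Bcl6 stands apart at -2.75, and Cyp1a1 lies among many probe sets of like p.

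Cyp1a1 lay at a log2 signal of 4.35, 4.55 and 4.76 in the lowest, median and highest vehicle animal, and at 4.64, 4.86 and 5.09 at 9.71 mg/kg. The groups overlapped, with 4 of 6 treated animals beyond the vehicle range. The log2 difference was 0.29 (95% interval 0.11 to 0.47), or 1.22-fold (1.08 to 1.39). The exact permutation test gave p = 0.0130 (two-sided), 0.0260 after Benjamini-Hochberg adjustment over 6 tests of Cyp1a1 and Cyp1a2 in 3 comparisons, where 6 against 6 can give no p below 0.00216. In limma the unadjusted p was 0.00411, the 157th smallest of the array, and the adjusted p 0.811. The difference exceeds the spread of these 12 samples in a test of this gene alone, which was chosen with earlier results of these data known, and it does not stand out among all probe sets. Both group means lie below the array medians, a range in which array signals understate folds.

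Cyp1a2 lay at 12.58, 12.85 and 12.93 in the lowest, median and highest vehicle animal, and at 12.90, 12.94 and 13.004 in the treated ones. Here too the groups overlapped, with 4 of 6 treated animals beyond the vehicle range. The vehicle animals spread over a wider range (SD 0.14, n = 6) than the treated ones (SD 0.04, n = 6), with vehicle replicate 5 at 12.58 and replicate 4 at 12.74 the lowest. The log2 difference was 0.13 (95% interval -0.0040 to 0.27), or 1.10-fold. The exact permutation test gave p = 0.0238 (two-sided), 0.0357 after the same adjustment, and limma an unadjusted p of 0.0563 and an adjusted p of 0.981. The call by the exact test rested on few animals: without 9.71 mg/kg replicate 1, 2, 4 or 6 its p rose to between 0.0628 and 0.0801, and without vehicle replicate 5 the difference was 0.084. Centring each array on its median gave an exact permutation p of 0.0693.

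The step from 9.71 to 97.1 mg/kg was of another size. Cyp1a1 lay at 6.66, 8.22 and 9.26 in the lowest, median and highest animal at 97.1 mg/kg, all above the highest value of 5.09 at 9.71 mg/kg. It rose by a log2 difference of 3.19 (95% interval 2.44 to 3.94), or 9.15-fold (5.44 to 15.4), with an exact permutation p of 0.00216, the smallest possible, and 0.00648 after adjustment. It was the 1 probe set of 31042 to pass limma (0.00322%), with an adjusted p of 0.00483. An unadjusted p under 0.05 was reached by 582 higher (1.87%) and 562 lower (1.81%) probe sets, and 19 higher (0.0612%) and 21 lower (0.0677%) ones had groups that did not overlap, both Cyp1a genes among the former. Cyp1a2 rose as well by the exact test, by 0.38 (95% interval 0.26 to 0.50), or 1.30-fold, with an exact permutation p of 0.00216 (0.00648 adjusted). Its levels at 97.1 mg/kg, 13.23 to 13.49, lay above every animal at 9.71 mg/kg. Its limma adjusted p was 0.0567 in the fit of these 12 arrays and 0.00798 in a fit of all 36.

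The step from 0.97 to 9.71 mg/kg showed no such difference. Cyp1a1 differed by 0.13 (95% interval -0.08 to 0.35), with an exact permutation p of 0.277, and its upper bound corresponds to 1.27-fold. Cyp1a2 differed by 0.02 (95% interval -0.10 to 0.14), with an exact permutation p of 0.775 and an upper bound of 1.10-fold. In limma 0 probe sets passed (0%), the smallest adjusted p was 0.865, and 1482 had an unadjusted p under 0.05, of which 682 were higher (2.20%) and 800 lower (2.58%). The groups did not overlap for 36 higher (0.116%) and 26 lower (0.0838%) probe sets, neither Cyp1a gene among them. By group mean, Cyp1a1 followed the order of the doses, from 4.57 ± 0.15 (SD, n = 6) in vehicle through 4.60 ± 0.21 at 0.1, 4.73 ± 0.22 at 0.97 and 4.86 ± 0.17 at 9.71 to 8.06 ± 1.05 at 97.1 and 10.81 ± 0.63 at 970 mg/kg. Among the lower doses neighbouring means lie closer together than the SD of either group. Cyp1a2 was lowest in vehicle at 12.81 ± 0.14, and the groups at 0.1, 0.97 and 9.71 mg/kg shared a level of 12.95 ± 0.12, 12.92 ± 0.12 and 12.94 ± 0.04 (SD, n = 6 each) with no order by dose.

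**Figure D2:**
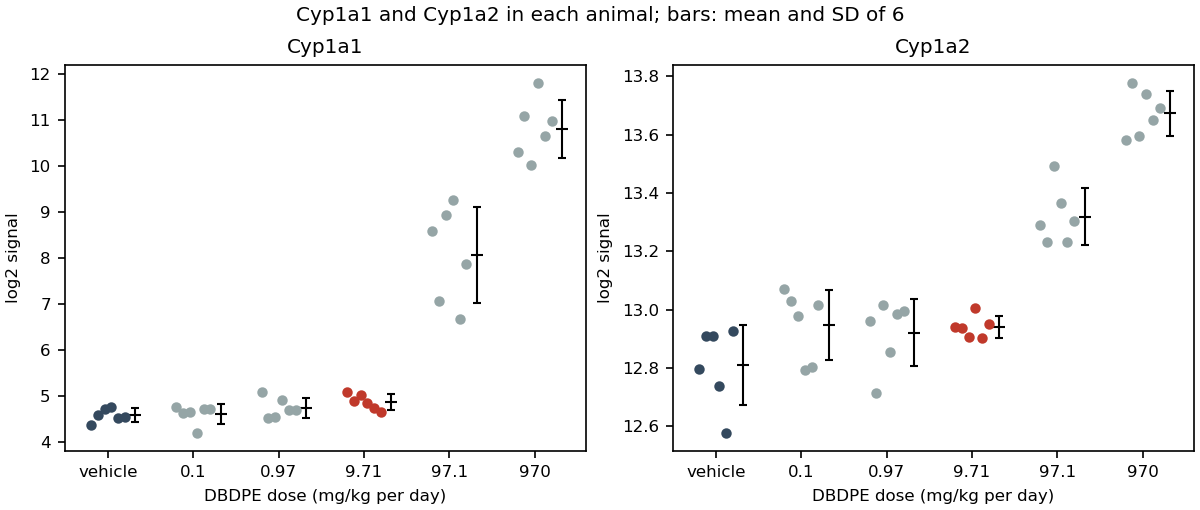
Log2 signal of Cyp1a1 and Cyp1a2 in each animal by DBDPE dose (mg/kg per day), with the mean and SD of 6 as bars. The animals at 9.71 mg/kg (red) reach 5.09 for Cyp1a1 and 13.004 for Cyp1a2, and every animal at 97.1 and 970 mg/kg lies above them.

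The AhR genes other than Cyp1a1 and Cyp1a2 showed no common direction. Of the 8 target genes written, 7 were measured, with a median log2 difference of 0.04, Cyp1a1 and Cyp1a2 included, against -0.0017 over all probe sets. Of the 5 others, 2 lay above 0 and 3 below. Tiparp differed by 0.22 (95% interval -0.16 to 0.59) and Ahrr by 0.04 (-0.20 to 0.28). Cyp1b1 differed by -0.13 (-0.30 to 0.04), Aldh3a1 by -0.14 (-0.31 to 0.03) and Nqo1 by -0.29 (-0.79 to 0.21). The wide interval of Nqo1 goes with 1 animal, vehicle replicate 5 at 8.96, where the other vehicle animals lay between 7.14 and 7.55. Of the receptor complex, Ahr itself had a log2 difference of -0.29 (-0.52 to -0.07) with an unadjusted p of 0.0140 and an adjusted p of 0.926, and a second probe set of it had -0.09. Arnt differed by 0.09, Arnt2 by 0.06, Ptges3 by 0.05 and Hsp90ab1 by -0.03, all within 0.10 of vehicle. The vehicle means of Ahrr (3.364), Aldh3a1 (3.425) and Arnt (4.32) lay below every array median, and that of Cyp1b1 (5.129) lay close to the medians. Their differences therefore say little about these transcripts.

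The genes of smallest p, 8 in each direction, are given as a description, since none passed limma. The higher ones had small differences of 0.35 to 0.63. Rbpj, which encodes the DNA-binding factor of Notch signalling, lay at 7.43, 7.54 and 7.63 in the lowest, median and highest vehicle animal and at 7.83, 7.97 and 8.15 at 9.71 mg/kg, with no overlap. Its log2 difference was 0.43 (95% interval 0.29 to 0.57), with a limma adjusted p of 0.159. The level was not particular to this dose, and vehicle had the smallest spread of all groups. Group means were 7.537 ± 0.09 in vehicle, 7.885 ± 0.37 at 0.1 and 7.713 ± 0.42 at 0.97 mg/kg. They were 7.963 ± 0.12 at 9.71, 7.956 ± 0.30 at 97.1 and 7.704 ± 0.33 at 970 mg/kg (SD, n = 6 each). The other probe sets of Rbpj gave 0.37, again with no overlap, and 0.43. Rbpj passed under 2 of 22 alternatives, with an adjusted p of 0.0416 with an intensity trend and robust prior and 0.0386 with the beta-actin difference as a covariate, and over all of them its adjusted p ranged from 0.0386 to 0.967.

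The other higher genes were Kansl1, a subunit of a histone acetyltransferase complex, at 0.38, Spetex2l2 at 0.43, Tbc1d14, a regulator of autophagy, at 0.39, Nufip2, an RNA-binding protein gene, at 0.35, Atxn1l, a partner of the repressor Capicua, at 0.41, Ahctf1, a nuclear pore protein gene, at 0.63, and Aplp1, of the amyloid precursor family, at 0.36. Several of these are measured by more than 1 probe set that all lay on the same side, with 0.27 to 0.35 over 4 probe sets of Nufip2, 0.17 to 0.41 over 3 of Atxn1l and 0.39 to 0.63 over 3 of Ahctf1. A second probe set of Kansl1 gave 0.14. The vehicle mean of Aplp1 was 4.04, below every array median. Probe sets of a gene share the RNA of each animal and are not independent evidence.

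Bcl6 had the largest negative difference of any probe set that names a gene. It encodes a zinc finger repressor that in male rodent liver is held down by growth hormone. It lay at 7.50, 9.45 and 10.37 in the lowest, median and highest vehicle animal and at 5.58, 6.39 and 6.87 at 9.71 mg/kg, with no overlap. The log2 difference was -2.75 (95% interval -3.72 to -1.79), or 6.75-fold lower, with a limma adjusted p of 0.212. Leaving out vehicle replicate 6 brought that p to 0.0677, and over 22 alternatives it ranged from 0.0677 to 0.974. The group means did not fall steadily with dose, and the lowest was at 9.71 mg/kg. Those at 9.71, 97.1 and 970 mg/kg all lay below those of vehicle, 0.1 and 0.97 mg/kg. In order of dose they were 9.06 ± 1.26 in vehicle, 8.20 ± 1.77 at 0.1 and 8.50 ± 1.56 at 0.97 mg/kg. From there they were 6.30 ± 0.46 at 9.71, 7.08 ± 1.52 at 97.1 and 7.42 ± 0.94 at 970 mg/kg (SD, n = 6 each). A trend of Bcl6 with dose was not tested. Within the other groups single animals ran from 6.07 to 10.51, so each of them overlapped with vehicle.

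The other lower genes had smaller differences. They were Nrcam (-0.31), Epha4 (-0.54) and Homer1 (-0.35), known from adhesion, ephrin signalling and synapses of neurons, the myelin gene Mbp (-1.02), the zinc finger gene Znf865 (-0.25), Phaf1 (-0.22) and C10h17orf100 (-0.26). For Mbp the other probe sets gave -0.12 and -0.15, for Nrcam they gave 0.05 and -0.17, and for Znf865 they gave 0.04, 0.13 and 0.04. For Epha4 they gave -0.33, -0.12 and -0.09, and for Homer1 -0.30, -0.34, -0.15 and -0.16. For Nrcam and Znf865 the sign therefore depended on the probe set, and for Mbp, Epha4 and Homer1 the size. The vehicle means of Nrcam, Epha4 and Znf865, by the probe set of smallest p, were 5.013, 3.925 and 4.772, below every array median.

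Growth hormone acts on hepatocytes through Jak2 and the factor Stat5b, which binds around TTCNNNGAA and switches on Socs2 and Cish, feedback inhibitors of that signal. Of 9 measured genes of the growth hormone and male liver list, 7 lay above 0 and 2 below, with a median of 0.02. Socs2 lay at 6.04, 7.40 and 7.88 in the lowest, median and highest vehicle animal and at 7.55, 8.56 and 9.20 at 9.71 mg/kg, with overlap. Its log2 difference was 1.33 (95% interval 0.59 to 2.07), with an unadjusted p of 0.00159 and a limma adjusted p of 0.809. Cish, chosen after its values were seen, differed by 0.48 (-0.72 to 1.69), and single animals ran from 5.33 to 8.09 in vehicle and from 5.42 to 7.78 at 9.71 mg/kg. Of the male-biased P450 genes, Cyp2c11 differed by 0.0041 (-0.13 to 0.14) and Cyp2c13 by 0.02 (-0.08 to 0.11). Igf1, the circulating growth factor gene, differed by 0.02 (-0.09 to 0.14), and its other probe sets gave 0.12 (-0.04 to 0.28) and 0.08 (-0.05 to 0.21).

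The promoters of Bcl6 and Cish, 250 bases each (RefSeq GRCr8, plus strand), are shown as the genes of this list at either end of the motif count, with TTCNNNGAA in capitals. Bcl6 lies at chr11:90358503-90358752 with 0 matches, and Cish at chr8:116850719-116850968 with 4.
Bcl6: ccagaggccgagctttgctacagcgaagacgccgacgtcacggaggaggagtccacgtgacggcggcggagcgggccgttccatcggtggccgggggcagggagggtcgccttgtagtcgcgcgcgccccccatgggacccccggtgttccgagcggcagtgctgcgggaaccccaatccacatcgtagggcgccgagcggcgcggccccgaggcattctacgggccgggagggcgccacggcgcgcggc
Cish: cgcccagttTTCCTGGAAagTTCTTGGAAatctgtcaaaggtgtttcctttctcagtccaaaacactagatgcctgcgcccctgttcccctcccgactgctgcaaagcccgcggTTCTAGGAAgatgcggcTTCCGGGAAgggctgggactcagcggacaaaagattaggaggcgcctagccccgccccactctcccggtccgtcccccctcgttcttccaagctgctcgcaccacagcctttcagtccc
The motif, which reads the same on both strands, is in 2 of the 9 promoters found for the list and in 7.7% of all 33469.

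Onecut1, chosen after its values were seen, encodes a liver-enriched factor that growth hormone also regulates. It lay at 5.90, 7.18 and 9.50 in the lowest, median and highest vehicle animal and at 7.57, 9.87 and 10.19 at 9.71 mg/kg. The groups overlapped, and the log2 difference was 1.86 (95% interval 0.60 to 3.12), with an unadjusted p of 0.00656 and a limma adjusted p of 0.878. A second probe set gave 1.68. In vehicle the animals with the lowest Bcl6, replicates 5 and 6, held the highest Onecut1.

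Prcp, a lysosomal carboxypeptidase gene also chosen after its values were seen, lay between 6.39 and 7.31 in vehicle, between 7.29 and 7.77 at 9.71 mg/kg and between 6.34 and 7.19 at 97.1 mg/kg. Against vehicle its difference was 0.60 (95% interval 0.22 to 0.98), with a limma adjusted p of 0.815. Between 97.1 and 9.71 mg/kg it was -0.92, with an adjusted p of 0.0567, and a second probe set gave -0.97. Vehicle animals fell into levels near 6.4 and near 7.3, and single animals at 970 mg/kg spanned the same range, from 6.35 to 7.71. Animals at 0.1 mg/kg lay between 7.161 and 7.825 and those at 0.97 mg/kg between 7.176 and 7.301. The group mean of 7.463 at 9.71 mg/kg was thus near those at 0.1 (7.448) and 0.97 mg/kg (7.264).

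**Figure D3:**
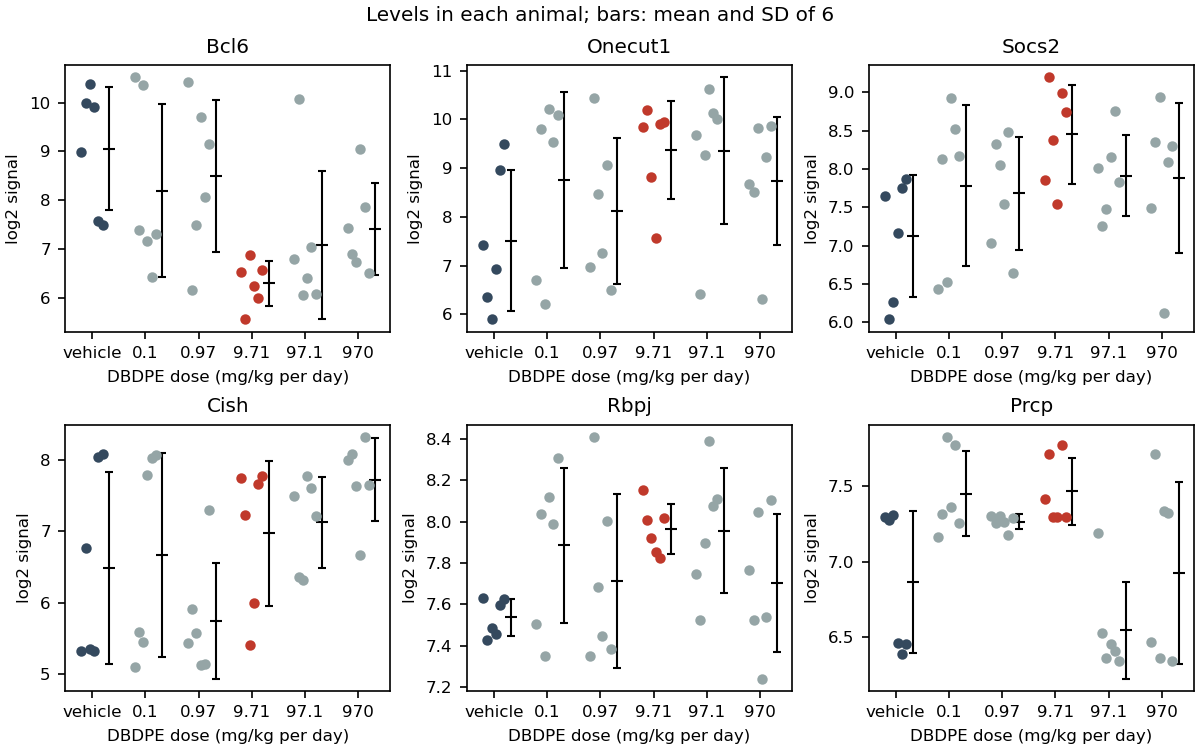
Log2 signal of Bcl6, Onecut1, Socs2, Cish, Rbpj and Prcp in each animal by DBDPE dose (mg/kg per day), with the mean and SD of 6 as bars. At 9.71 mg/kg (red) Bcl6 and Rbpj do not overlap with vehicle. The other doses (grey) span from 6.07 to 10.51 for Bcl6 and from 7.24 to 8.41 for Rbpj.

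The 31 gene lists held 363 genes, of which 314 were measured, each by 1 probe set. None of the 314 passed limma. An unadjusted p under 0.05 was reached by 14 higher (4.46%) and 18 lower (5.73%) list genes, against 2.40% and 2.75% of all 14217 genes. By the probe sets used for the lists, 1 gene, Bcl6, had groups that did not overlap. Bpgm, a red cell list gene picked after its values were seen, had no overlap by a probe set not used for the list (log2 difference -0.21). List medians ran from -0.15 to 0.32, with 13 above 0 and 18 below. In bulk liver, fewer cells of a type and less RNA per cell cannot be told apart.

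**Figure D4:**
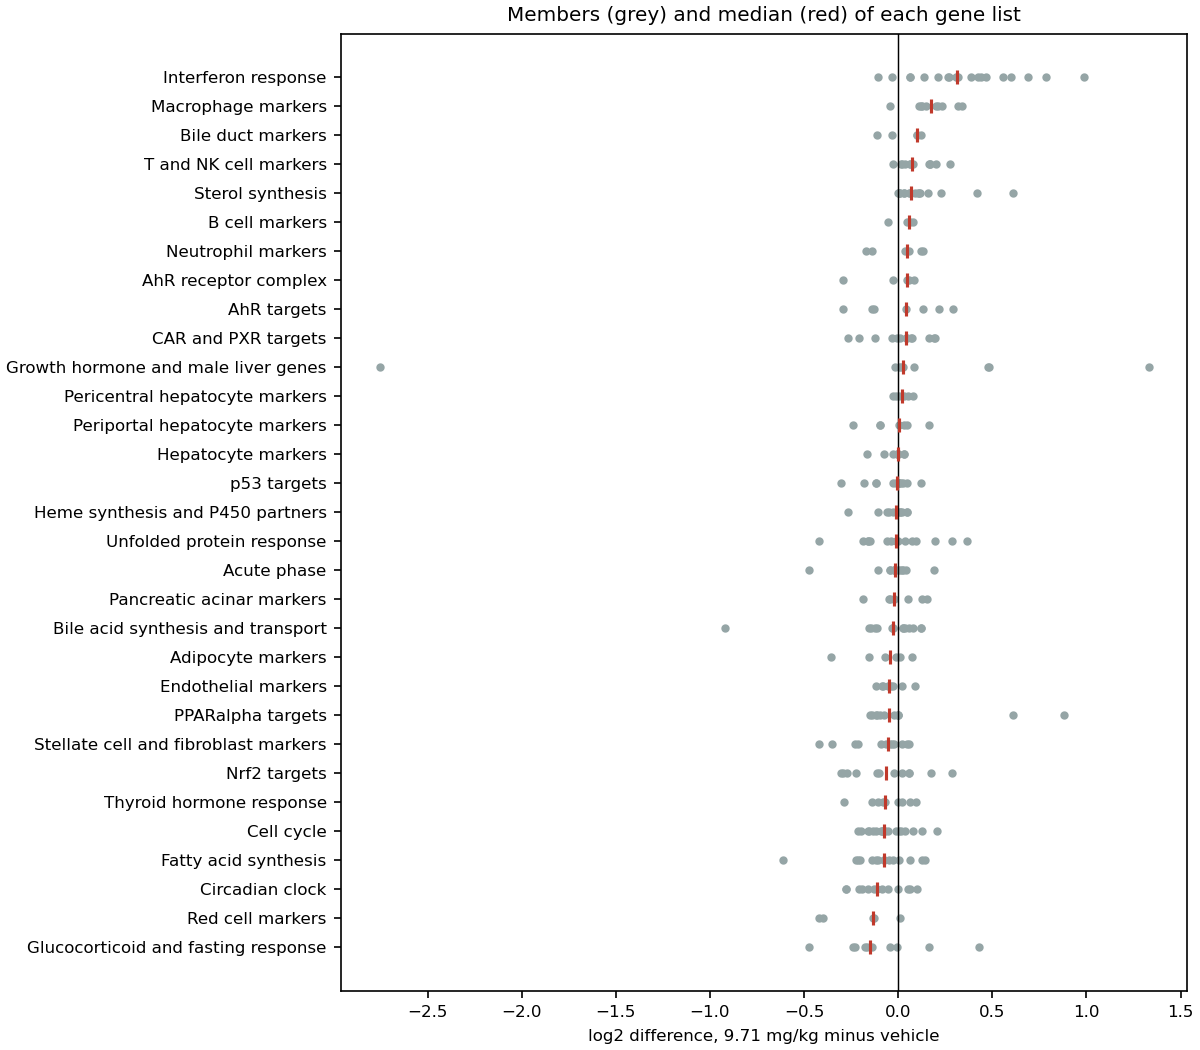
Log2 difference between 9.71 mg/kg and vehicle for each measured gene of the 31 lists (grey) and their median (red). The interferon list has the highest median, 0.32, and the glucocorticoid and fasting list the lowest, -0.15.

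The interferon response genes had the highest median, 0.32, with 18 of 20 above 0. Mx2, an antiviral GTPase gene, lay at 3.98, 4.86 and 6.58 in the lowest, median and highest vehicle animal and at 4.59, 6.45 and 6.78 at 9.71 mg/kg, and differed by 0.99 (95% interval 0.06 to 1.92; limma adjusted p 0.973). A second probe set of Mx2 gave 0.38 (-0.25 to 1.00). By the first probe set, group means of Mx2 at the other doses, 5.486 to 5.992, were all above the vehicle mean of 5.013. The mean at 9.71 mg/kg was 6.002, close to the 5.992 at 0.97 mg/kg. Oas1a differed by 0.69 (-0.07 to 1.45), Irf7 by 0.60 (-0.17 to 1.37) and Ifit2, the lowest, by -0.11. The animals of both groups divided: the mean of the list, as a difference from the vehicle mean, was 0.83, 0.74, 0.74 and 0.34 in treated replicates 3, 5, 6 and 4 but -0.25 and -0.26 in replicates 1 and 2, and in vehicle it was 0.61 and 0.31 in replicates 1 and 2 but -0.30 to -0.11 in the rest. Macrophage markers moved with it: 9 of 10 lay above 0, with a median of 0.17, and their mean log2 level ran from 7.75 to 8.68 in vehicle and from 8.06 to 8.74 at 9.71 mg/kg. The lowest left-out median of the macrophage list was 0.068, without vehicle replicate 4. Clec4f, the Kupffer cell lectin gene, differed by 0.23 (-0.16 to 0.63) and Cd68 by 0.20 (-0.15 to 0.56). The part of these cells in the interferon values was not tested. T and NK cell markers had a median of 0.07 with 11 of 12 above 0, at mean levels of 4.68 to 4.85 and 4.75 to 5.03, near or below the array medians. B cell markers had a median of 0.06 and neutrophil markers 0.05. Mean levels of B cell markers, 4.6 to 5.195 in vehicle and 4.755 to 4.963 in treated animals, were also near or below the array medians. Those of neutrophil markers, 3.813 to 3.983 and 3.663 to 4.119, lay below all of them.

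Sterol synthesis genes leaned upward by little, with 16 of 17 above 0 and a median of 0.07. Insig1, which holds the sterol sensor in the endoplasmic reticulum, differed by 0.61 (95% interval 0.11 to 1.11; unadjusted p 0.0200, limma adjusted p 0.931), Idi1 by 0.23 and Sqle by 0.11. The median of the list was -0.0064 without 9.71 mg/kg replicate 1, the animal with the highest mean of these genes. Fatty acid synthesis genes leaned the other way, with 4 of 15 above 0 and a median of -0.08, and Scd, the stearoyl-CoA desaturase gene, differed by -0.61 (-1.21 to -0.0074). Cyp7a1, whose enzyme sets the rate of bile acid production from cholesterol, lay at 10.51, 11.61 and 11.93 in the lowest, median and highest vehicle animal and at 9.88, 10.36 and 11.88 at 9.71 mg/kg. It differed by -0.92 (-1.58 to -0.26; unadjusted p 0.00985, limma adjusted p 0.894), while the median of its list was -0.03. Of the PPARalpha targets, which serve fat burning, Pdk4 differed by 0.88 (0.30 to 1.47; unadjusted p 0.00560, limma adjusted p 0.853) against a list median of -0.05. Cyp4a1 differed by -0.0029 (-0.20 to 0.20).

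**Figure D5:**
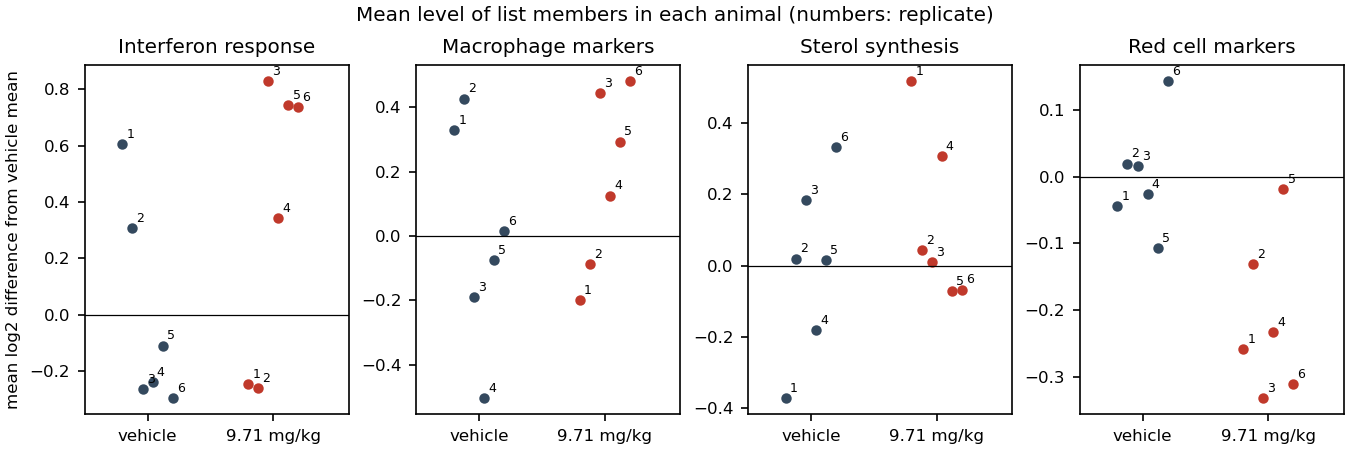
Mean log2 difference from the vehicle mean over the interferon, macrophage, sterol synthesis and red cell lists in each animal, with replicate numbers. The groups overlap in every panel, and treated animals range from -0.26 to 0.83 for the interferon list.

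Red cell genes were lower in most treated animals: 4 of 5 lay below 0, with a median of -0.14, and the mean log2 level ran from 7.17 to 7.42 in vehicle and from 6.94 to 7.25 at 9.71 mg/kg. Hbb, the beta globin gene, lay at 12.13, 12.31 and 12.38 in the lowest, median and highest vehicle animal and at 11.65, 11.79 and 12.19 in treated ones, a difference of -0.40 (95% interval -0.60 to -0.20; unadjusted p 7.029e-04, limma adjusted p 0.677). Alas2, the heme synthesis enzyme of red cell precursors, differed by -0.42 (-0.66 to -0.18; unadjusted p 0.00206, limma adjusted p 0.809). Group means of Hbb at the other doses, 12.10 to 12.36, were all above the 11.88 at 9.71 mg/kg, and vehicle lay at 12.27.

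The lists of markers of other liver cells, and of pancreatic acinar cells and adipocytes, had medians within 0.10 of 0. The hepatocyte list had a median of -0.0019, with Alb at -0.0019, Apoa1 at -0.07 and Ttr at -0.00081, and the pericentral and periportal lists had 0.02 and 0.0062. Cyp1a2 is itself strongest in the pericentral zone, whose markers Glul and Cyp2e1 differed by -0.03 and 0.03. Endothelial markers had a median of -0.05, stellate cell and fibroblast markers -0.06, bile duct markers 0.10, pancreatic acinar markers -0.02 and adipocyte markers -0.04.

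The remaining lists of drug and stress responses showed medians of either sign within 0.16 of 0. The targets of the drug receptors CAR and PXR had 8 of 13 genes above 0 and a median of 0.04, with Cyp3a23-3a1 at 0.16 (95% interval -0.04 to 0.37), Cyp3a2 at 0.07 and the P450 reductase gene Por at -0.27. The Nrf2 list, of oxidative stress genes, had a median of -0.06, with Hmox1 at 0.17 and Gclc at -0.10. Thyroid hormone response genes had -0.07, heme synthesis genes and P450 partners -0.01, p53 targets -0.0037, the unfolded protein response -0.01 and acute phase genes -0.02. Cell cycle genes had -0.07 with 6 of 19 above 0, clock genes -0.11 with 3 of 13 above 0 and Cry2, a clock repressor gene, at -0.28. Glucocorticoid and fasting genes had -0.15 with 2 of 10 above 0, from Tsc22d3 at -0.47 to Sgk1 at 0.43. The remaining medians were those of the AhR receptor complex, 0.05, and of the AhR targets given above.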

How the data were processed

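Liver RNA was measured on 1 Affymetrix 3′ IVT array a sample. The deposited table holds the authors' log2 signal for each probe set, made by RMA with affy, per the submitters' processing notes (versions: not given in the sources used here), and it is not centred across samples. Whether other arrays were normalized with them is not stated. Of 31099 probe sets, 57 controls were left out and 31042 tested. The platform annotation names 1 gene for 20826 of them, several for 436 and none for 9780, and 20758 of the first were matched by Entrez ID to RefSeq's rat genes to update symbols. It names no build, so no gene positions are given.

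The 12 arrays of a comparison were fitted with limma 3.58.1 in R 4.3.3 (lmFit, eBayes), two-sided, with Benjamini-Hochberg adjustment over all probe sets, a threshold of 0.05 and no filter on low values. The series' design text names R/maanova, which was not used here. Cyp1a1 and Cyp1a2 were also tested by exact permutation over all 924 splits. Lists are described by counts and medians, each gene by its probe set of highest mean over 36 arrays. The comparison, genes and lists were chosen with earlier results of these data known.

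Genes named are Cyp1a1, Cyp1a2, the 8 of smallest p per direction where fewer than 5 passed, AhR list members and, from other lists, the first 3 measured and the lowest and highest. Others are marked as picked later. Alternatives were the samples in the fit, the replicate block, scaling, array weights, variance priors, the beta-actin covariate, a filter on low values, thresholds, averaging the probe sets of a gene, and each array left out. The method was tested on simulated data.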

Additional observations from a re-analysis of the deposited data

Results flagged for a closer look

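In 13 of 296 groups of 6 checked, 1 animal stood apart by Dixon's ratio (its gap to the nearest animal over the range), where chance flags about 1 in 20, or 14.8. In vehicle these were Nqo1 in replicate 5 (ratio 0.776, log2 level 8.96 against 7.14 to 7.55), Ptges3 in replicate 2 (0.698), Alas1 in replicate 1 (0.698, 10.97 against 10.03 to 10.31), Cyp7a1 in replicate 6 (0.634, 10.51 against 11.41 to 11.93), Bbc3 in replicate 6 (0.66) and Kdr in replicate 4 (0.779). At 9.71 mg/kg they were Serpina7 (0.63), Bmal1 (0.708) and Adipoq (0.763) in replicate 1, Lum in replicate 2 (0.771, 3.95 against 6.57 to 7.34), Prss1 in replicate 3 (0.688), Acot1 in replicate 4 (0.771) and Lgr5 in replicate 6 (0.779). Replicate 1 at 9.71 mg/kg holds 3 of them, in genes of unlike function. The Lum difference had an interval of -1.70 to 0.86.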

How the results depend on the processing

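The count of 0 probe sets at 9.71 mg/kg against vehicle stayed at 0 in the fit of all 36 arrays, in that of the 4 lowest groups, with the replicate block, with either scaling, array weights, no moderation and the filter on low values. At thresholds of 0.01 and 0.1 the count had to be 0, since the smallest adjusted p was 0.116. It was 2 (Rbpj and a probe set with no gene name) with an intensity trend and robust prior, 1 (Rbpj) with the beta-actin covariate, and 0 to 1 with an array left out (1, with no gene name, without 9.71 mg/kg replicate 6). The Cyp1a1 difference of 0.29 kept its call by the exact permutation test with each array left out (0.25 to 0.34) but not by limma, at an adjusted p of 0.811 with 12 arrays and 0.978 with 36, where the SE is 0.28 in place of 0.086 because the pooled spread takes in the top doses. The Cyp1a2 difference of 0.13 lost its call in limma (adjusted p 0.981 and 0.978), with centred arrays (0.12), with the replicate block by exact sign flips (0.13, p = 0.0625) and without any of 4 treated arrays (0.084 to 0.15 over all 12 left out). For 97.1 against 9.71 mg/kg the count of 1 became 2 with all 36 arrays (Cyp1a1 and Cyp1a2) and ran from 1 to 3 with an array left out (3, with both Prcp probe sets, without 97.1 mg/kg replicate 1). For 9.71 against 0.97 mg/kg it was 0 under each alternative run.

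The labels do not say whether the numbers pair the samples. Deviations of same-numbered arrays of 9.71 mg/kg and vehicle correlated at -0.25 to 0.04, with 0 of 6 over 0.1. These values show no sign of pairing but cannot settle it, and the replicate block shows only what a shared number does. It left Cyp1a1 past the threshold (exact sign flips, p = 0.0312). Under the alternatives 492 list medians moved by less than the spread between animals and 4 by more. The AhR receptor complex went to -0.026 when the probe sets of a gene were averaged, the AhR targets ran from -0.0071 to 0.12 with an array left out, and the periportal list from -0.074 to 0.024. Small moves do not mean a stable direction. Most list medians changed sign under some alternative, among them the CAR and PXR, thyroid hormone, PPARalpha, bile acid and acute phase lists. Others kept their sign, among them the interferon, macrophage, red cell, clock and glucocorticoid lists. A fit of the whole series leaves each difference between group means unchanged, so it cannot move a median. Of the values of named genes 123 changed sign without being called. No named gene passed limma in the main fit, and 2 values, both of Rbpj, passed under an alternative. That 0 called values reversed therefore says little. With centred arrays the median of all differences was -0.0095. The number of arrays and the low signal of Cyp1a1 limit what can be seen.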

Other observations

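Bcl6, Onecut1, Socs2 and Rbpj also varied together among the 24 animals of the other 4 doses, which are outside the 12-array comparison. The 4 relations were chosen after the values were seen, so their p-values are no independent evidence of a pattern. Each was computed on deviations from the dose group's mean. Bcl6 and Onecut1 ran opposite, with r = -0.908 and rho = -0.783 (n = 24, permutation p = 1e-05, the smallest that 100000 resamples can give, and 5.000e-05, or 2.000e-05 and 1.000e-04 after Benjamini-Hochberg adjustment over the 4 relations). Without the 2 animals farthest from the median of Bcl6, r was -0.867, and within single doses of 6 animals it lay between -0.95 and -0.872. Bcl6 and Rbpj gave r = -0.832 and rho = -0.759 (permutation p = 1e-05 and 4.000e-05, adjusted 2.000e-05 and 1.000e-04), -0.819 without those 2 animals and -0.9 to -0.706 within doses. Bcl6 and Socs2 gave r = -0.759 and rho = -0.682 (permutation p = 6.000e-05 and 4.200e-04, adjusted 8.000e-05 and 5.600e-04), -0.734 without those 2 animals and -0.963 to -0.418 within doses. Bcl6 and Cish gave r = -0.51 (permutation p = 0.0109, adjusted 0.0109), and rho = -0.386 missed the threshold (p = 0.0627, adjusted 0.0627).

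Angptl4, a secreted inhibitor of lipoprotein lipase and a target of PPARalpha, was chosen after its values were seen. It differed by 0.61 (95% interval 0.30 to 0.92), with an unadjusted p of 8.005e-04 and a limma adjusted p of 0.694, beside Pdk4 at 0.88, while most of that list lay below 0. Parp14, also chosen after its values were seen, had the smallest p of the interferon list, 0.00709, with a difference of 0.27.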
